A study of Mus musculus with 28 samples.

Results

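The comparison described here is the effect of chronic kidney disease (CKD) on the ventricular myocardium of mice that received no bacterium, taken across all genes. It rests on 16 of the 28 libraries of the series: 6 from mice labelled CKD and vehicle and 10 from mice labelled sham and vehicle, chosen by their sample titles. All were adult male C57BL/6 mice. CKD was induced by surgery at 6 weeks of age, in which most of the left kidney and then the whole right kidney were removed. Sham mice had a sham operation. Both groups ate a diet with 1% hydroxyproline, which the body converts to oxalate, and 0.5% calcium, so the sham mice are controls on that diet and not mice on plain chow. On day 7 each mouse was given 200 µl of culture medium by gavage as the vehicle. The other libraries come from mice given the oxalate-degrading bacterium Oxalobacter formigenes (Oxf), with 5 sham and 7 CKD mice. They entered the same statistical fit and are used here only to ask whether the CKD effect differed under Oxf. The design text describes 10 mice a group, and the mice without a library were not analysed here. Each library is 1 mouse.

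Loss of kidney function loads the heart through raised blood pressure, salt and water retention, anaemia, uraemic solutes and altered phosphate handling. Stressed ventricular muscle is known to switch on fetal and stretch genes such as the natriuretic peptides, to change calcium handling and ion channels, and to shift fuel use. Fibroblasts lay down matrix, and capillaries are lost. The gene lists below follow these roles.

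The tissue label fits the ventricular muscle markers in every library. The 5 ventricular muscle markers (Myl2, Myh6, Tnni3, Actn2, Irx4) summed to a median of 19792 CPM (counts scaled to a common library total) in sham and 23389 CPM in CKD libraries, and none was at 0. Depth was 22299166 to 51283990 counts in sham and 34325007 to 65378162 counts in CKD libraries. The 7SL RNA copies Rn7s1 and Rn7s2 took 2.30% to 19.9% of counts in sham and 2.26% to 21% in CKD libraries. Transcripts of the atria and of other tissues were uneven. The 6 atrial markers (Nppa, Myl4, Myl7, Sln, Stard10, Bmp10) summed to 221 to 2848 CPM (median 1361) in sham libraries. In CKD libraries they summed to 1097 to 2671 CPM (median 2199). The 4 adipocyte markers (Adipoq, Plin1, Cidec, Ucp1) summed to a median of 52.2 CPM (highest 216) in sham and 5.39 CPM (highest 109) in CKD libraries, with Ucp1 at 0 in at least 1 library. The 4 skeletal muscle markers reached 175 CPM in 1 sham library and 506 CPM in 1 CKD library, against medians of 2.89 and 2.01 CPM. Both libraries stand apart. In such bulk tissue, fewer cells of a type and less RNA per cell cannot be told apart.

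At an adjusted p-value under 0.05 (edgeR quasi-likelihood test, Benjamini-Hochberg adjustment), 2 of 24273 genes differed between CKD and sham mice under vehicle, or 0.00824%. Both rose in CKD. Without adjustment, 1083 genes (4.46%) had a p under 0.05, of which 508 were higher (2.09% of all tested) and 575 lower (2.37%). These shares are the background for every count of list members below. The groups did not overlap for 8 genes that were higher in every CKD mouse (0.033%) and for 23 that were lower (0.0948%). Leaving out 1 library moved the unadjusted count to between 597 (without CKD replicate 2) and 2014 (without CKD replicate 5), with 1941 without sham replicate 5 and 1797 without sham-Oxf replicate 1, and the adjusted count to 0 or 1 for any vehicle mouse left out. The median log2 difference over all genes was -0.03, and 44.4% of genes were higher. Single-gene evidence beyond these 2 genes is therefore at the level of unadjusted p-values. The words rose and fell are used only for those 2, and for the others values are given. Differences are log2 fold changes, CKD minus sham, with their standard error (SE).

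Cish was one of the 2 genes. It encodes a suppressor of cytokine signalling that is induced by STAT5 downstream of growth hormone, prolactin, erythropoietin and related receptors. The gene (ENSMUSG00000032578) lies at chr9:107296026-107302784 in GRCm38 and overlaps 2 annotated genes on the other strand. STAT5 binds a palindrome written TTCNNNGAA, and the sequence around the RefSeq transcript start of Cish (GRCm38.p6, chr9:107296409-107296688, plus strand) is shown because it holds 2 such matches, in capitals, which do not overlap:

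Cish: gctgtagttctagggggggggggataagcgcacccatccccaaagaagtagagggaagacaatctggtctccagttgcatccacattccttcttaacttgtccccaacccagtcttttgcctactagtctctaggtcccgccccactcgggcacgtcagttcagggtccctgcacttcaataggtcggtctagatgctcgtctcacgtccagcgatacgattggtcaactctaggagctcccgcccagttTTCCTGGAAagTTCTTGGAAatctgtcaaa

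The matches begin at bases 1 and 12 from the transcript start. The same letters occur in 8.30% of the 32851 RefSeq promoter windows of 300 bases (both strands read alike, since the motif is a palindrome), so a match alone describes the window and is no evidence of binding. Cish had 18.5 to 28.3 CPM (median 19.9) in sham mice and 29.9 to 53.9 CPM (median 34.5) in CKD mice. Every CKD mouse was above every sham mouse, and CKD replicate 2 was the highest. Cish rose by 0.82 ± 0.14 (edgeR adjusted p 0.0261). The call is not stable: it held in 2 of the 16 fits that leave out 1 vehicle mouse and in 10 of 28 alternatives in all. Without CKD replicate 2 the difference was 0.65 (edgeR adjusted p 0.627, with 0.000523 to 1 over all alternatives).

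The list of growth hormone, STAT5 and SOCS genes did not lean. Of 36 tested, 18 were higher and 18 lower (median 0.02, which turned to -0.01 with upper quartile scaling), and 2 had an unadjusted p under 0.05. The second was Ptpn11, the phosphatase SHP-2, at 0.29 ± 0.13 (edgeR unadjusted p 0.0404). Some members were looked up after the values of Cish were seen. Socs2, a further STAT5 target, was at 0.27 ± 0.13 (edgeR unadjusted p 0.0556), Stat5b at 0.20 ± 0.12, Stat5a at 0.11 ± 0.11 and Socs3 at 0.12 ± 0.21, with a sign that turned without CKD replicate 1 (-0.16). Under Oxf the CKD effect on Cish was smaller by 0.67 on the log2 scale (interaction -0.67), which did not pass the test (edgeR adjusted p 1).

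The second gene past the threshold was RP23-230H3.6 (ENSMUSG00000092397), an antisense transcript at chr2:114054335-114064868. It rose by 0.68 ± 0.11 (edgeR adjusted p 0.0261), from 10.7 to 17.9 CPM (median 13.3) in sham to 17.9 to 26 CPM (median 21.8) in CKD mice. The highest sham and the lowest CKD mouse were nearly level. The call held in 6 of the 16 fits that leave out 1 vehicle mouse and in 13 of 28 alternatives, with an adjusted p of 4.01e-05 to 0.909. It starts 786 bases beyond the 5′ end of Actc1, on the opposite strand, and it overlaps A530058N18Rik on its own strand, so reads of those genes can be mixed. Actc1 (chr2:114047282-114053548) encodes cardiac alpha-actin, the main thin-filament actin of heart muscle. Its levels were 629.7 to 1749 CPM (median 881) in sham and 1216 to 2897 CPM (median 1466) in CKD mice. The groups overlapped, and the difference was 0.67 ± 0.24 (edgeR unadjusted p 0.00936). A neighbouring transcript, RP23-230H3.2, named after its values were seen, was at 0.66 ± 0.24 (edgeR unadjusted p 0.00952).

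**Figure D1:**
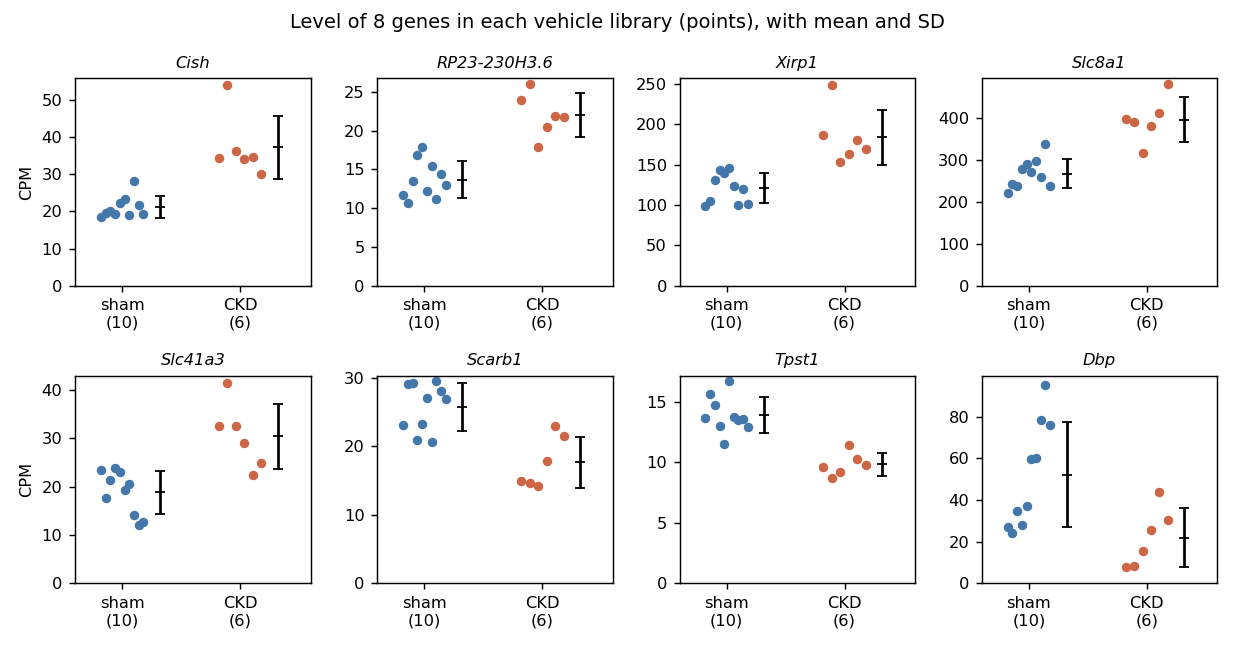
CPM of 8 genes in each of the 10 sham-vehicle and 6 CKD-vehicle libraries (points), with the mean and SD beside them. For Cish, RP23-230H3.6 and Xirp1 every CKD mouse lies above every sham mouse, for Tpst1 every CKD mouse lies below, and the other 4 genes overlap.

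Fetal and stretch genes formed one of the most one-sided lists. Of 22 tested, 20 were higher in CKD (median 0.39) and 8 of them had an unadjusted p under 0.05, with none in the other direction, against 2.09% of all genes. Without CKD replicate 2 the median was 0.25. Xirp1, an actin-binding protein of the intercalated disc (chr9:120013755-120023598), had 98.3 to 146 CPM (median 122) in sham and 154 to 250 CPM (median 175) in CKD mice. The groups did not overlap, and the difference was 0.61 ± 0.14 (edgeR unadjusted p 0.000184). Nppb, which encodes B-type natriuretic peptide, had 6.56 to 55.2 CPM (median 22.7) in sham and 23.5 to 81.9 CPM (median 47.6) in CKD mice. Its difference was 1.04 ± 0.35 (edgeR unadjusted p 0.00658), and the groups overlapped widely. Tnfrsf12a, the TWEAK receptor, was at 0.67 ± 0.23 (edgeR unadjusted p 0.00717).

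Other classic stress markers had larger p-values. Nppa, which encodes atrial natriuretic peptide, ranged from 97.9 to 1255 CPM (median 542) in sham and from 413 to 1186 CPM (median 767) in CKD mice, a difference of 0.45 ± 0.47 that is within the spread (edgeR unadjusted p 0.344). Nppa is also an atrial marker. It was lowest in sham replicate 3, with an atrial list level of -1.53, and highest in sham replicate 1, with 1.00. The part of atrial tissue in its values was not tested. Myh7, the slow myosin heavy chain of the fetal programme, had medians of 1375 and 1628 CPM (0.31 ± 0.13, edgeR unadjusted p 0.0284). Its adult counterpart Myh6, looked up after its values were seen, had medians of 17251 and 20683 CPM (0.39 ± 0.17, edgeR unadjusted p 0.0280). Both isoforms were thus higher, by like amounts, in place of an exchange of one for the other. Acta1, skeletal alpha-actin, is part of the fetal programme and also marks skeletal muscle. It had medians of 37.1 and 76.9 CPM (1.09 ± 0.45, edgeR unadjusted p 0.0232), and its highest values were 155 CPM in the sham library rich in skeletal muscle transcripts and 245 CPM in CKD replicate 2, which is not rich in them. Without both libraries rich in skeletal muscle transcripts Acta1 was at 1.42. Of 13 genes of the natriuretic peptide system, 7 were higher and 6 lower (median 0.03, or -0.01 with upper quartile scaling). Corin, the protease that activates the natriuretic peptides, was at 0.38 ± 0.13 (edgeR unadjusted p 0.00675). Npr1, their receptor, was at -0.30 ± 0.13 (edgeR unadjusted p 0.0278), and Ide, which degrades them, at 0.22 ± 0.10 (edgeR unadjusted p 0.0443).

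Contractile genes were higher almost throughout. In the sarcomere and Z-disc list 27 of 28 members were higher in CKD (median 0.39), and 10 had an unadjusted p under 0.05, all higher. Over all genes 44.4% were higher, and 2.09% were higher at that p. Nexn, a Z-disc protein, had 106 to 223 CPM (median 155) in sham and 172 to 262 CPM (median 216) in CKD mice (0.44 ± 0.14, edgeR unadjusted p 0.00531). Ldb3 (cypher), which ties alpha-actinin to signalling at the Z-disc, was at 0.36 ± 0.12, and Myom1 (myomesin) of the M-band at 0.43 ± 0.15. A list level is the mean over a list's members of log2 CPM minus the sham mean of each gene. For the sarcomere list it ran from -0.53 to 0.47 in sham and from 0.07 to 0.85 in CKD mice, so the groups overlapped, and all 6 CKD mice were above the sham median of -0.05.

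Calcium handling and membrane currents showed a mixed picture with several single genes near the top of the genome-wide ranking. In the calcium cycling list 22 of 32 members were higher (median 0.23), with 8 higher and 1 lower at an unadjusted p under 0.05. Over all genes those shares were 2.09% and 2.37%. The median was 0.12 without CKD replicate 3 and 0.14 without CKD replicate 2. Slc8a1 is the sodium-calcium exchanger NCX1, which removes calcium from the myocyte in diastole (chr17:81373105-81738377). It had 222 to 338 CPM (median 265) in sham and 315 to 481 CPM (median 393) in CKD mice, and 1 CKD mouse lay within the sham range. The difference was 0.57 ± 0.13 (edgeR unadjusted p 0.000177). Srl (sarcalumenin), a calcium-binding protein of the sarcoplasmic reticulum, was at 0.65 ± 0.17 (edgeR unadjusted p 0.000781), with 105 to 203 CPM in sham and 184 to 354 CPM in CKD mice. Asph, the junctin and junctate locus, was at 0.31 ± 0.10, and Camk2d, the main cardiac CaM kinase II, at 0.25 ± 0.08. The calcium pump Atp2a2 (SERCA2), named after its values were seen, was at 0.48 ± 0.19 (edgeR unadjusted p 0.0168), its inhibitor Pln at 0.54 ± 0.27 and the release channel Ryr2 at 0.31 ± 0.16.

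Potassium channel genes were the membrane list with the clearest lean. Of 27 tested, 21 were higher (median 0.14) and 6 of these had an unadjusted p under 0.05, with none lower. Over all genes 2.09% were higher and 2.37% lower at that p. The median was 0.09 without CKD replicate 5 or without sham replicate 5. Kcnj15, a potassium channel gene outside this list, went the other way. It had 1.79 to 5.61 CPM in sham and 1.54 to 2.43 CPM in CKD mice, and its difference is given below. Kcnj12 (Kir2.2), part of the inward rectifier that sets the resting potential, had 6.89 to 11.3 CPM (median 7.64) in sham and 10.3 to 13.0 CPM (median 12.6) in CKD mice (0.54 ± 0.14, edgeR unadjusted p 0.000626). Kcnk3, the background channel TASK-1, was at 0.61 ± 0.19 (edgeR unadjusted p 0.00325), Kcnj11, the pore of the ATP-sensitive channel, at 0.35 ± 0.12, and Kcnn1 at 0.34 ± 0.13. The sodium channel, pacemaker and gap junction list did not lean (12 higher, 13 lower, median -0.09). In it, Nkx2-5, a cardiac transcription factor, was at 0.40 ± 0.14, the connexin gene Gja1 at 0.36 ± 0.17, and the sodium channel subunit Scn3b at -0.72 ± 0.25 (edgeR unadjusted p 0.00692), from a low level of 2.06 CPM in sham (median) against 1.31 in CKD. Scn3b was highest in sham replicates 1, 2 and 10 (3.35, 3.29 and 3.30 CPM), which also had the highest nerve list levels. The other sham mice were at 1.37 to 2.27 CPM and the CKD mice at 1.13 to 1.77 CPM. The part of nerve tissue in this difference was not tested.

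Receptor pathways of the stressed heart gave few calls. Of 29 adrenergic genes 17 were higher (median 0.03, or -0.01 with upper quartile scaling). Pde3a, which degrades cyclic AMP, was at 0.35 ± 0.13, the muscarinic receptor Chrm2 at 0.48 ± 0.20, and the kinase anchor Akap12 at -0.35 ± 0.12 (edgeR unadjusted p 0.00788). Of 16 genes of the renin, angiotensin and aldosterone system 7 were higher (median -0.04). Ace, the converting enzyme, had 55.3 to 77.7 CPM (median 57.6) in sham and 42.0 to 55.4 CPM (median 47.8) in CKD mice. The overlap was slight, and the difference was -0.32 ± 0.13 (edgeR unadjusted p 0.0158). Lnpep was at 0.28 ± 0.13. Bves, a caveolin-associated membrane protein of striated muscle that binds cyclic AMP, was among the 12 genes with the smallest p in its direction (0.63 ± 0.16, edgeR unadjusted p 0.000532).

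Oxidative metabolism was higher as a block, with few single calls. All 36 tested subunits of complex I were higher in CKD (median 0.42), as were all 13 of complexes II and III (median 0.43), 15 of 16 of complex IV (median 0.41) and 16 of 17 of the ATP synthase (median 0.50). The numbers with an unadjusted p under 0.05 were 1, 1, 0 and 2. The shares over all genes were 44.4% higher and 4.46% at that p, and these call counts are not read as a result. The spread between mice was as wide as the difference. The complex I list level ran from -0.63 to 1.02 in sham mice and from -0.40 to 1.20 in CKD mice, and CKD replicate 2 was the highest of all. Without it the medians were 0.22 for complex I, 0.11 for its assembly factors, 0.21 for complexes II and III, 0.25 for complex IV and 0.29 for the ATP synthase. Ndufc1, the complex I member with the smallest p, had 13.0 to 42.6 CPM (median 16.7) in sham and 17.1 to 48.8 CPM (median 30.8) in CKD mice (0.62 ± 0.25, edgeR unadjusted p 0.0198). The members named by smallest p elsewhere were Sdhd of complex II (0.56 ± 0.26), Cox7b of complex IV (0.67 ± 0.35), and Atp5s (0.42 ± 0.15) and Atp5g2 (0.44 ± 0.20) of the ATP synthase. The complex I assembly factor Ndufaf4 was at 0.41 ± 0.17, in a list of 7 that were all higher (median 0.26). The 13 protein genes of the mitochondrial genome itself did not lean the same way, with 5 higher and 8 lower (median -0.03), and mt-Nd6 at 0.39 ± 0.34 had the smallest p among them (edgeR unadjusted p 0.256). Of 23 mitochondrial transfer and ribosomal RNAs 17 were higher (median 0.17), with mt-Tr at 0.88 ± 0.41. That median was -0.0046 without CKD replicate 2, -0.07 with the clock score, and 0.03 with the 7SL or adipocyte covariate.

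Fuel pathways leaned the same way as the nuclear respiratory genes. In the citrate cycle list 26 of 29 were higher (median 0.38) and 8 had an unadjusted p under 0.05, against 4.46% of all genes. Among them Got2, the mitochondrial aspartate transaminase, was at 0.55 ± 0.22, Idh3a at 0.55 ± 0.23, Dlst at 0.34 ± 0.15 and Me3 at 0.36 ± 0.14. For fatty acid uptake and oxidation 37 of 47 were higher (median 0.29). Esrrg, a nuclear receptor that drives oxidative genes, had 19.0 to 28 CPM (median 23.4) in sham and 26.3 to 31.6 CPM (median 30.0) in CKD mice (0.34 ± 0.12, edgeR unadjusted p 0.00820). Ppargc1a, its coactivator, was at 0.37 ± 0.16 and the thioesterase Acot1 at 0.68 ± 0.29. Angptl4, an inhibitor of lipoprotein lipase, went the other way, with 2.28 to 14.4 CPM (median 5.01) in sham and 1.48 to 4.49 CPM (median 2.05) in CKD mice (-1.42 ± 0.55, edgeR unadjusted p 0.0151). Its highest values were in sham replicates 10, 2 and 8 and in CKD replicate 5. Those libraries also had the highest adipocyte list levels of their group. Sham replicate 6, with an adipocyte level of 0.93, was at 3.84 CPM. The part of fat tissue in the Angptl4 difference was not tested. Without CKD replicate 2 the median of the citrate cycle list was 0.19 and that of fatty acid oxidation 0.15. With the clock score described below as covariate they were 0.002 and -0.04.

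Sugar and ketone genes followed. For glycolysis, pyruvate and glycogen 46 of 54 were higher (median 0.28), with 8 higher and 0 lower at an unadjusted p under 0.05. Over all genes those shares were 2.09% and 2.37%. Without CKD replicate 2 the median was 0.12. Ppp1r3c, which targets a phosphatase to glycogen, was at 0.51 ± 0.22, the insulin-responsive glucose transporter Slc2a4 at 0.38 ± 0.17 and hexokinase Hk1 at 0.31 ± 0.14. Of 8 ketone body genes 6 were higher (median 0.24), among them Bdh1, which oxidises hydroxybutyrate, at 0.76 ± 0.33 and the carrier Slc16a1 at 0.56 ± 0.24. Of 30 genes of branched-chain amino acid breakdown 22 were higher (median 0.15), with Ppm1k at 0.45 ± 0.19, Pcca at 0.26 ± 0.12, Hibadh at 0.39 ± 0.18 and Dld at 0.56 ± 0.27. Without CKD replicate 2 the median was 0.09 for ketone body and 0.05 for branched-chain genes. Lipid storage did not lean (14 of 28 higher, median -0.01). Its droplet proteins Fitm2 (0.49 ± 0.14, edgeR unadjusted p 0.00152) and Fitm1 (0.55 ± 0.24) were higher, and Plin2 (-0.29 ± 0.14) and Gpihbp1 (-0.42 ± 0.20) lower. Cholesterol and fatty acid synthesis had no member at an unadjusted p under 0.05 (18 of 42 higher, median -0.05), and Elovl1 at -0.23 ± 0.12 came nearest. Insulin and IGF signalling was centred on 0.01 (24 of 44 higher, and -0.01 with DESeq2 size factors), with Irs1 at 0.36 ± 0.18. Targets of thyroid hormone and PPAR were centred on -0.03 (8 of 19 higher).

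Genes of protein production were also higher with little single-gene evidence. Of 85 cytosolic ribosomal proteins 83 were higher (median 0.22) and 1, Rps27a, had an unadjusted p under 0.05 (0.59 ± 0.28). The shares over all genes were 44.4% higher and 4.46% at that p. The median of the cytosolic ribosomal proteins was 0.10 without CKD replicate 3 and 0.14 without CKD replicate 2. Of 76 mitochondrial ribosomal proteins 72 were higher (median 0.24), with Mrpl47 at 0.40 ± 0.15, Mrpl42 at 0.32 ± 0.14, Mrps31 at 0.52 ± 0.23 and Mrpl30 at 0.40 ± 0.18. Mitochondrial import (21 of 24 higher, median 0.24, Tomm40 0.29 ± 0.13), proteasome subunits (45 of 47, median 0.18, Psme4 0.38 ± 0.16) and translation factors (60 of 69, median 0.15, Eif3a 0.23 ± 0.11) leaned likewise. Without CKD replicate 2 the medians were 0.11 for mitochondrial ribosomal proteins, 0.11 for import, 0.07 for the proteasome and 0.05 for translation factors. Splicing factors (45 of 64, median 0.06, Snrpn 0.38 ± 0.16) and clustered histones (39 of 59, median 0.06, Hist4h4 0.57 ± 0.29) lay nearer to the median of all genes.

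**Figure D2:**
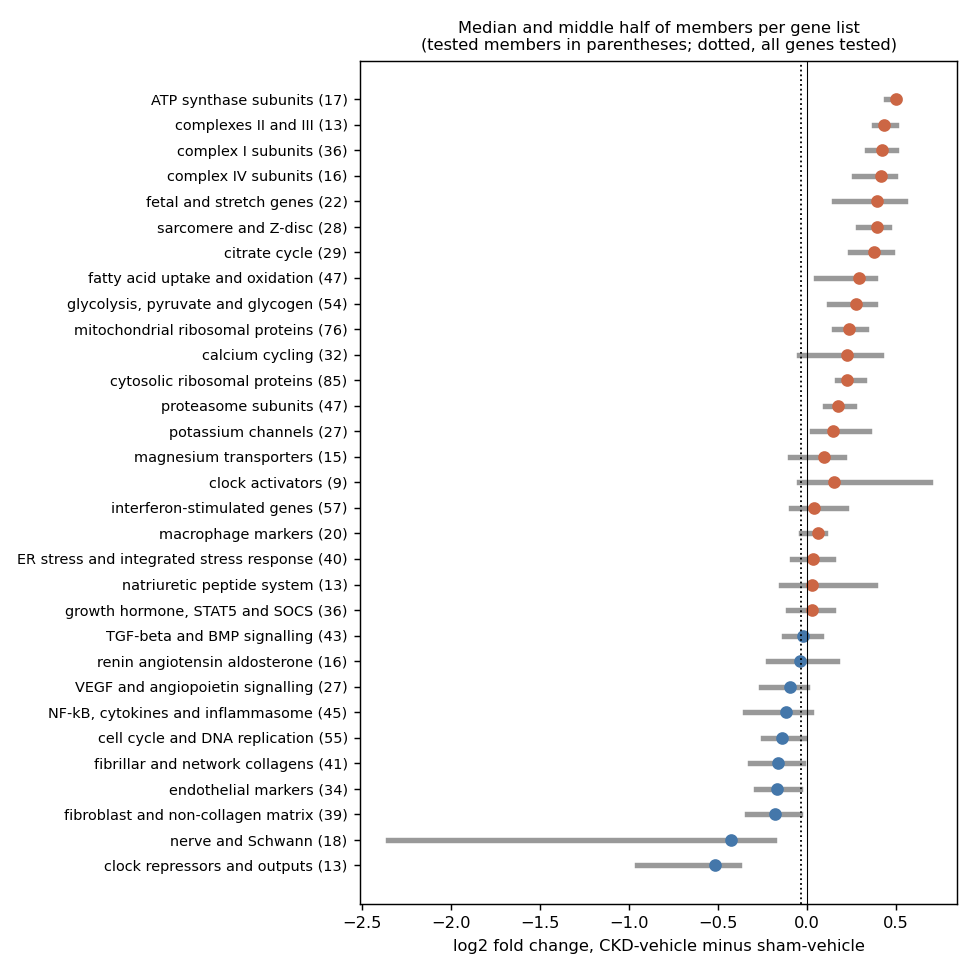
Median (points) and quartile range (bars) of the log2 fold changes of each gene list, CKD-vehicle minus sham-vehicle, with the median of all 24273 genes dotted at -0.03. The nuclear complex I to IV and ATP synthase, sarcomere, fetal and citrate cycle lists lie between 0.38 and 0.50, signalling lists lie near 0, and clock outputs lie at -0.52.

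Circadian repressors and outputs all lay on one side, as the complex I subunits did, and more of them had an unadjusted p under 0.05. Their list level overlapped between the groups, with -0.85 to 0.90 in sham and -1.23 to 0.19 in CKD mice. The clock runs in heart muscle as a loop in which Arntl and Clock switch on Per, Cry and Rev-erb genes, which in turn repress them, and the outputs Dbp, Tef and Hlf follow. All 13 tested repressors and outputs were lower in CKD (median -0.52), and 10 had an unadjusted p under 0.05, against 2.37% of all genes. Dbp had 24.1 to 95.1 CPM (median 48.5) in sham and 8.05 to 44.1 CPM (median 20.6) in CKD mice (-1.24 ± 0.33, edgeR unadjusted p 0.000722). The groups overlapped. Its locus (chr7:45705088-45710203) overlaps Sphk2 on the other strand. Per2 had 12.5 to 162 CPM (median 41.2) in sham and 6.90 to 67.5 CPM (median 18.3) in CKD mice (-1.08 ± 0.49, edgeR unadjusted p 0.0368). Hlf was at -0.79 ± 0.22, Tef at -0.81 ± 0.26, Bhlhe41 at -0.52 ± 0.16 and Bhlhe40 at -0.38 ± 0.12. Usp2 at -0.14 ± 0.15, Per1 at -0.38 ± 0.36 and Nr1d2 at -0.41 ± 0.23 were the members with an unadjusted p above 0.05.

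The E-box CACGTG is the letter sequence that Arntl and Clock bind. Of the repressors and outputs, 11 have an entry among the RefSeq promoter windows, with 13 windows in all. At least 1 window of 4 of these genes held the E-box. It occurs in 7.15% of all 32851 windows, which is a share of windows and not of genes. A match alone is no evidence of binding. The windows are shown with the E-box in capitals (GRCm38.p6, 5′ to 3′ on the strand of the gene). The first, chr3:95882229-95882478 on the minus strand, ends at the transcript start of Ciart and holds 3 E-boxes, and the others are 46-base stretches around 1 E-box, at chr15:81802526-81802571 and chr15:81811256-81811301 (plus, at 2 starts of Tef), chr11:69098763-69098808 (plus) and chr6:145865548-145865593 (minus):

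Ciart: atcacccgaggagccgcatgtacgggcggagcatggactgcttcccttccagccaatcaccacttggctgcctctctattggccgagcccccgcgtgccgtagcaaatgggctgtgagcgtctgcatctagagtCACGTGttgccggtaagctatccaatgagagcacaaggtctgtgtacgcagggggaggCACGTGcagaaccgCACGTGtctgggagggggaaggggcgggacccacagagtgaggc
Tef: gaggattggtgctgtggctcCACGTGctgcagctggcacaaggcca
Tef, second start: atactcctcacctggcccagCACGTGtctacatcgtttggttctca
Per1: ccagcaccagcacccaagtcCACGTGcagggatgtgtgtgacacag
Bhlhe41: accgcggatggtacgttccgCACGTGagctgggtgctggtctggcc

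The Ciart E-boxes lie 116, 58 and 44 bases before the transcript start. Ciart was at -1.02 ± 0.46 (edgeR unadjusted p 0.0369), with a median of 5.73 CPM in sham and 3.73 in CKD mice. In the opposite phase, the list around Arntl (9 tested) had 6 higher members (median 0.15), of which 4 had an unadjusted p under 0.05. Its median was 0.06 without CKD replicate 3 and 0.07 without CKD replicate 2. Nfil3, a repressor of the Dbp targets, was at 0.88 ± 0.26 (edgeR unadjusted p 0.00179), Arntl at 0.82 ± 0.35, Npas2 at 0.69 ± 0.29 and Clock at 0.39 ± 0.13. Arntl had 3.65 to 27.4 CPM (median 13.1) in sham and 19.0 to 37.3 CPM (median 20.8) in CKD mice. The clock score, the level of the Dbp and Per list minus that of the Arntl list, was 0.00 ± 0.72 (SD, n = 10) in sham and -1.04 ± 0.79 (SD, n = 6) in CKD mice. Within each group it was lower in mice with low numbers and higher in mice with high numbers: mouse 901 was at -1.05 and mouse 910 at 0.99 among sham, and mouse 913 at -1.71 and mouse 920 at -0.31 among CKD mice. Mouse numbers of the groups do not mix, so number and surgery cannot be told apart. The hour of tissue collection is not given in the sources used here.

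**Figure D3:**
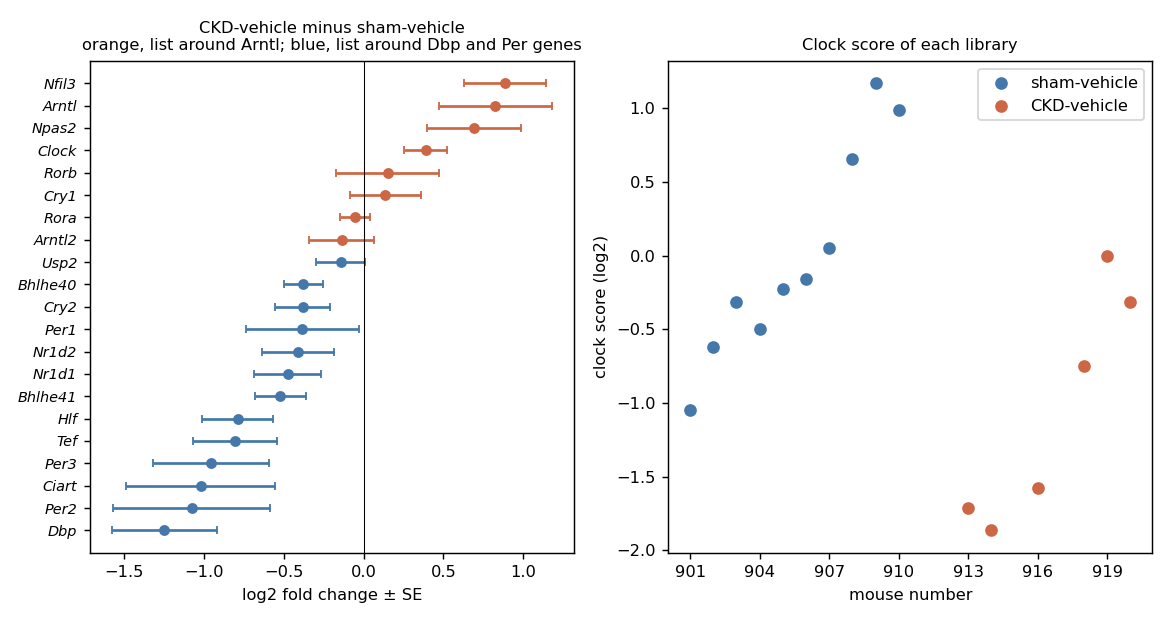
Left, log2 fold change ± SE of the clock genes described, CKD-vehicle minus sham-vehicle, and right, the clock score (log2) of each library against mouse number. The 13 Dbp and Per list members lie below 0, and the score is low in the low-numbered mice of each group.

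With the clock score as a covariate, the fit compares groups at an equal score. The median of the sarcomere list was then 0.11 in place of 0.39, of the fetal and stretch list 0.08 in place of 0.39, of calcium cycling 0.04 in place of 0.23, and of complex I -0.07 in place of 0.42. Citrate cycle genes moved from 0.38 to 0.002 and fatty acid genes from 0.29 to -0.04. Glycolysis genes moved from 0.28 to 0.01, ketone body genes from 0.24 to -0.07 and branched-chain genes from 0.15 to 0.07. Cytosolic ribosomal proteins moved from 0.22 to -0.08 and mitochondrial ribosomal proteins from 0.24 to 0.01. Mitochondrial import moved from 0.24 to -0.04, the proteasome from 0.18 to -0.02 and translation factors from 0.15 to -0.03. Potassium channels were at 0.22 in place of 0.14, endothelial markers at -0.23 in place of -0.17, and fibroblast and matrix genes at -0.43 in place of -0.18, so these lists did not shrink. Sham replicates 1 and 9, with the lowest and highest sham score (-1.05 and 1.17), had complex I levels of -0.43 and -0.41. CKD replicates 2 and 5, with the lowest and highest CKD score (-1.87 and -0.002), had complex I levels of 1.20 and -0.40. The relation of score and complex I level over all mice of either group was not tested. The score was made from the same libraries and itself differs between the groups, so such a fit also removes any part of the CKD effect that runs parallel to it. No gene passed in it (0 genes, with 670 at an unadjusted p under 0.05). With the log2 share of 7SL as covariate the complex I median was 0.25 and the sarcomere median 0.31. With the adipocyte list level, chosen after seeing the data, they were 0.19 and 0.27.

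**Figure D4:**
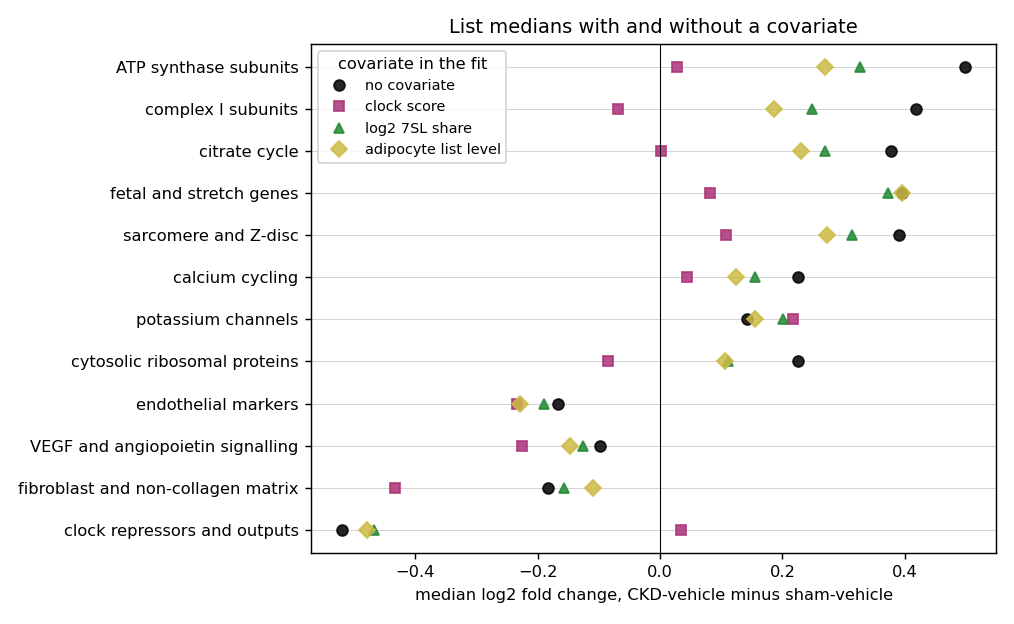
Median log2 fold change of 12 lists (CKD-vehicle minus sham-vehicle) without a covariate and with the clock score, the log2 7SL share or the adipocyte list level in the fit. With the clock score, the respiratory, citrate, fetal, sarcomere, calcium, ribosomal and clock lists lie nearer to 0, and the potassium channel, endothelial, VEGF and fibroblast lists lie farther from it.

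Other rhythmic heart genes were split (11 of 22 higher, median 0.00). Slc41a3, a magnesium transporter with a known daily rhythm in heart (chr6:90604725-90646412), was near the top of the genome-wide ranking. It had 12.2 to 24.0 CPM (median 19.9) in sham and 22.5 to 41.4 CPM (median 30.7) in CKD mice, with a slight overlap (0.69 ± 0.15, edgeR unadjusted p 8.61e-05). The magnesium transporter list, which holds Slc41a3, was centred on 0.10 (9 of 15 higher), and Slc41a3 was its only member at an unadjusted p under 0.05. Leo1 was at 0.51 ± 0.19 and Mthfd1l at -1.09 ± 0.36.

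The heat shock list did not lean (20 of 35 higher, median 0.11, or -0.02 without CKD replicate 2), with 2 members higher and 5 lower at an unadjusted p under 0.05. Those with the smallest p were lower, with a wide spread in sham mice. Hspa1b, an inducible HSP70, had 6.03 to 135 CPM (median 16.9) in sham and 6.11 to 13.0 CPM (median 9.24) in CKD mice (-2.04 ± 0.57, edgeR unadjusted p 0.00121). Sham replicates 3 and 5, at 118 and 135 CPM, were far above the rest, and the sham minimum lay below every CKD value. Its copy Hspa1a (-1.92 ± 0.65) is near-identical, so the counts of the pair are not independent. The cochaperones Hsph1 (-1.05 ± 0.32, edgeR unadjusted p 0.00264) and Dnaja1 (-0.73 ± 0.26) went the same way. Immediate-early genes were centred on 0.05 (18 of 31 higher), with Fosl1 at -0.57 ± 0.23, Myc at -0.70 ± 0.33 and Srf, which drives contractile genes, at 0.34 ± 0.16. Glucocorticoid response genes were centred on 0.13 (20 of 26 higher), or -0.02 without CKD replicate 5 and with limma voom, with Cdkn1a, the cell-cycle inhibitor p21, at 0.77 ± 0.34 (edgeR unadjusted p 0.0293).

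Fibrosis genes leaned lower in CKD, with few single calls. Of 41 collagen genes 9 were higher and 32 lower (median -0.17), and none had an unadjusted p under 0.05. The collagen median was -0.03 with the adipocyte list level as covariate, -0.09 with the 7SL share and -0.26 without sham replicate 5. The collagen level was highest in sham replicates 1, 2, 6 and 10 (0.51, 0.23, 0.21 and 0.18), which also had high adipocyte levels, and the part of this in the result was not tested further. Col1a1, the main chain of type I collagen, had 31.3 to 168 CPM (median 83.4) in sham and 61.8 to 102 CPM (median 88.0) in CKD mice (-0.19 ± 0.28, edgeR unadjusted p 0.512). Col3a1 was at 0.00 ± 0.26, with medians of 172 and 178 CPM, and its sign turned with the scaling. Col16a1 at -0.32 ± 0.16 had the smallest p of the list. Among fibroblast and other matrix genes 30 of 39 were lower (median -0.18), and 4 had an unadjusted p under 0.05, all lower. The median was -0.32 without CKD replicate 3, -0.12 without CKD replicate 6 and -0.14 without sham replicate 1. With the adipocyte list level as covariate it was -0.11. Postn, secreted by activated fibroblasts, had 16 to 85.1 CPM (median 35.6) in sham and 15.7 to 45.3 CPM (median 22.6) in CKD mice (-0.61 ± 0.26, edgeR unadjusted p 0.0254). Thbs4 was at -0.79 ± 0.29, Thy1 at -0.66 ± 0.27 and Cilp at -0.70 ± 0.34. Sham replicate 1 was the highest library for Postn (85.1 CPM) and Cilp (47.1 CPM). The fibroblast level ran from -0.69 to 0.67 in sham and from -0.46 to 0.30 in CKD mice.

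Matrix enzymes leaned lower as well. Of 41 proteases, inhibitors and crosslinkers 33 were lower (median -0.12), with the prolyl hydroxylase P4ha1 at -0.53 ± 0.20. The TGF-beta and BMP list did not lean (21 of 43 higher, median -0.03, as for all genes), and its median was 0.03 without CKD replicate 6 or without sham replicate 1. In it 2 members had an unadjusted p under 0.05. Tgfb1 was at -0.36 ± 0.12 (edgeR unadjusted p 0.00491), with 19.8 to 34.0 CPM in sham and 17.3 to 21.7 CPM in CKD mice. Smad1, which carries BMP signals, was at -0.38 ± 0.13 (edgeR unadjusted p 0.00693) and did not overlap between the groups, with 19.4 to 26.4 against 15.1 to 18.9 CPM. Calcification and cartilage genes were centred on -0.15 (5 of 16 higher), or on -0.04 with the adipocyte list level as covariate. Of these Chad was at -1.13 ± 0.50, and Col2a1 was barely detected at a median of 0.135 CPM in sham and 0.031 in CKD mice.

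Endothelial markers were lower in most cases. Of 34 tested 28 were lower (median -0.17), with 5 lower and 1 higher at an unadjusted p under 0.05. Over all genes those shares were 2.37% and 2.09%. Dll4, the Notch ligand of arterial and tip endothelium, had 30.0 to 55.6 CPM (median 41.6) in sham and 22.9 to 38.1 CPM (median 28.3) in CKD mice (-0.50 ± 0.16, edgeR unadjusted p 0.00359). Its feedback target Nrarp was at -0.80 ± 0.25 (edgeR unadjusted p 0.00347), from 2.74 to 6.13 CPM in sham against 1.64 to 2.94 CPM in CKD mice. Nrp2, a VEGF coreceptor, was at -0.38 ± 0.13 and Efnb2 at -0.30 ± 0.12. Prox1, the exception at 0.37 ± 0.12, marks lymphatic endothelium and is also made by heart muscle. In the VEGF and angiopoietin list 21 of 27 were lower (median -0.10), including the VEGF receptor Flt4 at -0.28 ± 0.12. Wnt and Notch genes were centred on -0.10 (16 of 51 higher). The endothelial level lay below the sham mean in all 6 CKD mice (-0.27 to -0.09). In sham mice it lay between -0.28 and 0.27, with 4 of 10 above that mean, and sham replicate 10 was the lowest library of all. Without a covariate and with the clock, 7SL and adipocyte covariates the endothelial median was -0.17, -0.23, -0.19 and -0.23.

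Scarb1 ranked first among the lower genes with an appreciable level (chr5:125277087-125341094). It encodes the HDL receptor SR-B1. It had 20.7 to 29.4 CPM (median 26.9) in sham and 14.3 to 22.9 CPM (median 16.4) in CKD mice (-0.54 ± 0.12, edgeR unadjusted p 0.000104), and it passed with DESeq2 (adjusted p 0.0153). Tpst1, a tyrosine sulfotransferase of the Golgi, was lower in every CKD mouse (11.5 to 16.7 CPM in sham, 8.70 to 11.4 in CKD, -0.50 ± 0.13, edgeR unadjusted p 0.000416). Prg4 (lubricin) was at -0.86 ± 0.23, Fam102a at -0.72 ± 0.20 and the potassium channel gene Kcnj15 at -0.79 ± 0.24. Mest, an imprinted gene, was at -0.46 ± 0.14, and Cnn3, an actin-binding calponin, at -0.33 ± 0.10. The antisense transcript RP23-249P18.1 was at -0.63 ± 0.18. On the higher side the 12 genes with the smallest p also held Ptpn4 (0.45 ± 0.11), a phosphatase, Slc35f6 (0.42 ± 0.10, groups without overlap), the membrane anchor Ank1 (0.54 ± 0.14) and Ndrg4 (0.41 ± 0.11).

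Mural markers were near the median of all genes (6 of 19 higher, -0.10), with Itga8 at -0.83 ± 0.29 and Des (desmin), also a muscle gene, at 0.52 ± 0.23. Epicardial and mesothelial genes were lower in 14 of 15 cases (median -0.33), with Wt1 at -0.44 ± 0.17 (edgeR unadjusted p 0.0139). With the adipocyte list level as covariate that median was -0.03, and it was -0.57 without CKD replicate 1 and -0.20 without sham replicate 1. Atrial genes were higher in 14 of 16 cases (median 0.32) with no single call, and Kcnj3 at 0.53 ± 0.35 was nearest. Their median was 0.19 without sham replicate 3 and 0.20 without CKD replicate 1.

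Inflammation showed no common direction. Of 57 interferon-stimulated genes 32 were higher (median 0.04) and 5 had an unadjusted p under 0.05, all higher. The interferon-inducible GTPases Irgm1 (0.44 ± 0.18), Iigp1 (0.70 ± 0.30), Igtp (0.69 ± 0.30) and Ifi47 (0.48 ± 0.22) led, and CKD replicate 4 was far above the rest. For Iigp1 it was at 133 CPM, against 27.8 to 36.1 CPM in the other CKD mice and 14.9 to 54.7 CPM in sham mice. Without that library Irgm1 was at 0.11, Iigp1 at 0.05, Igtp at 0.07 and Ifi47 at 0.24, and the list median was -0.11. Antigen presentation (9 of 32 higher, median -0.11, B2m -0.33 ± 0.20), complement (11 of 33, median -0.12, C4a -0.48 ± 0.33) and macrophage markers (13 of 20, median 0.06, Mertk -0.22 ± 0.16) had no member at an unadjusted p under 0.05. With the adipocyte covariate the antigen presentation and complement medians were 0.02 and 0.05. Among chemokines and their receptors (16 of 42 higher, median -0.08) Cxcr4 was at -0.52 ± 0.19, with Cxcl11 near the detection limit. The chemokine median was 0.07 with the adipocyte covariate. In the NF-kB, cytokine and inflammasome list 12 of 45 were higher (median -0.12, or 4.75e-05 with the clock score), with Il18 at -0.77 ± 0.37. Of 7 neutrophil granule genes 5 were higher (median 0.25). S100a9, at a median of 0.087 CPM in sham and 0.287 in CKD mice, had the smallest p (edgeR unadjusted p 0.0793).

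Stress pathways were close to the genome-wide median. No member of the NRF2 and antioxidant list had an unadjusted p under 0.05 (31 of 54 higher, median 0.06, Tkt -0.38 ± 0.19), nor did any target of the aryl hydrocarbon receptor, which binds uraemic indoles (6 of 17 higher, median -0.11, Ugt1a6a with the smallest edgeR unadjusted p of 0.0694). ER stress genes were centred on 0.03 (23 of 40 higher, with a sign that turned under upper quartile scaling), with the chaperone Hspa5 at 0.57 ± 0.27, the lipoprotein receptor Vldlr at 0.37 ± 0.12 (edgeR unadjusted p 0.00609) and Sesn2 at -0.41 ± 0.19. Autophagy genes were centred on 0.07 (34 of 59 higher, Map1lc3a 0.46 ± 0.21). Atrogenes and FoxO targets were centred on 0.09 (18 of 26 higher), with the muscle F-box proteins Fbxo40 at 0.48 ± 0.18 and Fbxo31 at 0.24 ± 0.12. In the p53, apoptosis and senescence list 25 of 35 were lower (median -0.09). There Casp8, the initiator caspase of death receptors, was lower in every CKD mouse (11.3 to 14.7 CPM in sham, 8.83 to 10.9 in CKD, -0.34 ± 0.11, edgeR unadjusted p 0.00494), and its partner Ripk1 was at -0.23 ± 0.09. Hypoxia genes were centred on 0.05 (20 of 32 higher), with Ankrd37 at -0.58 ± 0.20. Cell cycle genes were lower in 44 of 55 cases (median -0.14) without a call other than Cdkn1a. Their median was 0.003 with the clock score and -0.045 with the adipocyte covariate.

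Lists tied to kidney failure and to the diet gave few calls. FGF receptor, klotho and phosphate genes were centred on 0.05 (13 of 23 higher). In it the phosphate transporter Slc34a1, known from kidney, was scarcely detected, at a median of 0.157 CPM in sham and 0.997 in CKD mice (edgeR unadjusted p 0.0258). Of 18 genes of oxalate, glyoxylate and hydroxyproline metabolism 9 were higher (median 0.02, or -0.01 with DESeq2 size factors), with Got2, given above, and Aldh4a1, of proline breakdown, at 0.25 ± 0.12. Of 34 iron genes 27 were higher (median 0.09). Tfrc, the transferrin receptor that takes up iron, had 14.2 to 33.6 CPM (median 26.1) in sham and 24.5 to 49.8 CPM (median 35.5) in CKD mice (0.57 ± 0.21, edgeR unadjusted p 0.0105). Hfe2 (hemojuvelin) was at 0.45 ± 0.16 and the ferroxidase Cp at 0.31 ± 0.12, and Tfr2 was barely detected, with medians of 0.141 and 0.042 CPM. NAD and sirtuin genes were centred on -0.07 (9 of 28 higher, Nadk -0.19 ± 0.08). Red blood cell genes had no stable direction. Their median was 0.22 (8 of 10 higher, Bpgm 0.25 ± 0.31), but -0.18 without CKD replicate 3 and -0.51, -0.36 and -0.39 with the clock, 7SL and adipocyte covariates.

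Transcripts known from liver were lower in CKD. All 24 tested were lower, 19 with an unadjusted p under 0.05, against 2.37% of all genes. The defining markers (Alb, Apoa1, Ttr, Serpina1a) summed to a median of 5.37 CPM (highest 21.9) in sham and 0.922 CPM (0.594 to 1.96) in CKD libraries. Summed over all 24, the range was 18.9 to 240.9 CPM in sham and 16.1 to 100.8 CPM in CKD libraries, so the groups overlapped, and CKD replicate 5, the highest, exceeded most sham libraries. The major urinary proteins (Mup), made by liver under growth hormone and androgen, were the family with the lowest median of all. All 17 tested were lower with an unadjusted p under 0.05, and 10 did not overlap between the groups. Over all genes 2.37% were lower at that p, and 0.0948% were lower without overlap. Summed over the family there were 108 to 2884 reads in sham libraries and 6 to 50 reads in CKD libraries. Mup genes are near-identical copies whose reads can be counted more than once, so they are 1 observation and not 17. In Mup14, Mup2, Mup8 and Mup13 at least 4 of the 6 CKD libraries had no read, so fold changes are not given. Fgb, Fgg and Serpina3k, which are not copies of Mup, had medians of 0.421, 0.252 and 1.38 CPM in sham and 0.024, 0.009 and 0.122 CPM in CKD libraries. Mup20 was at 0.438 against 0.010 CPM. The origin of these transcripts was not tested.

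Transcripts of fat, lymphoid tissue and nerve varied between libraries more than between groups. The adipocyte list level was above the sham mean in 6 of 10 sham and 1 of 6 CKD libraries, with 19 of 20 members lower in CKD (median -1.43) and 0 of these at an unadjusted p under 0.05. That median was -3.01 without CKD replicate 5 and -0.89 without sham replicate 10. Lymphoid markers (16 of 18 lower, median -0.47, Ms4a1 smallest p at 0.201) and immunoglobulin genes (89 of 93 lower, median -1.78) were above it in 5 of 10 and 1 of 6. Of the immunoglobulin genes 14 had an unadjusted p under 0.05, against 4.46% of all genes. Ighv6-6, Ighv8-12, Ighv2-3 and Ighv1-78 led, each at a median under 0.14 CPM in sham. All 16 Hox genes were lower (median -0.81), with Hoxa4, Hoxa5 and Hoxa3 at an unadjusted p under 0.05 and medians of 0.405, 1.01 and 1.79 CPM in sham against 0.100, 0.369 and 0.784 CPM in CKD mice. With the adipocyte list level as covariate the median was -0.36 for Hox, 0.26 for lymphoid and 0.19 for immunoglobulin genes. Nerve and Schwann genes were lower in 16 of 18 cases (median -0.43, -0.27 without sham replicate 1 and -0.78 without CKD replicate 5). Prph, Syt1, Snap25 and Nefl had highest sham values of 4.78, 8.05, 6.22 and 2.55 CPM against highest CKD values of 0.295, 0.287, 0.092 and 0.198 CPM, and the sham medians of all 4 were under 0.3 CPM. Skeletal muscle genes had a median of 0.59. It was 0.31 without both libraries rich in these transcripts, -0.70 without CKD replicate 1 and 2.01 without sham replicate 6. Pvalb and Actn3, at 2.41 ± 1.03 and 1.75 ± 0.81, were at -0.10 and -0.88 without both libraries, and Mybpc2, at 0.80 ± 0.39, was at 0.52.

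**Figure D5:**
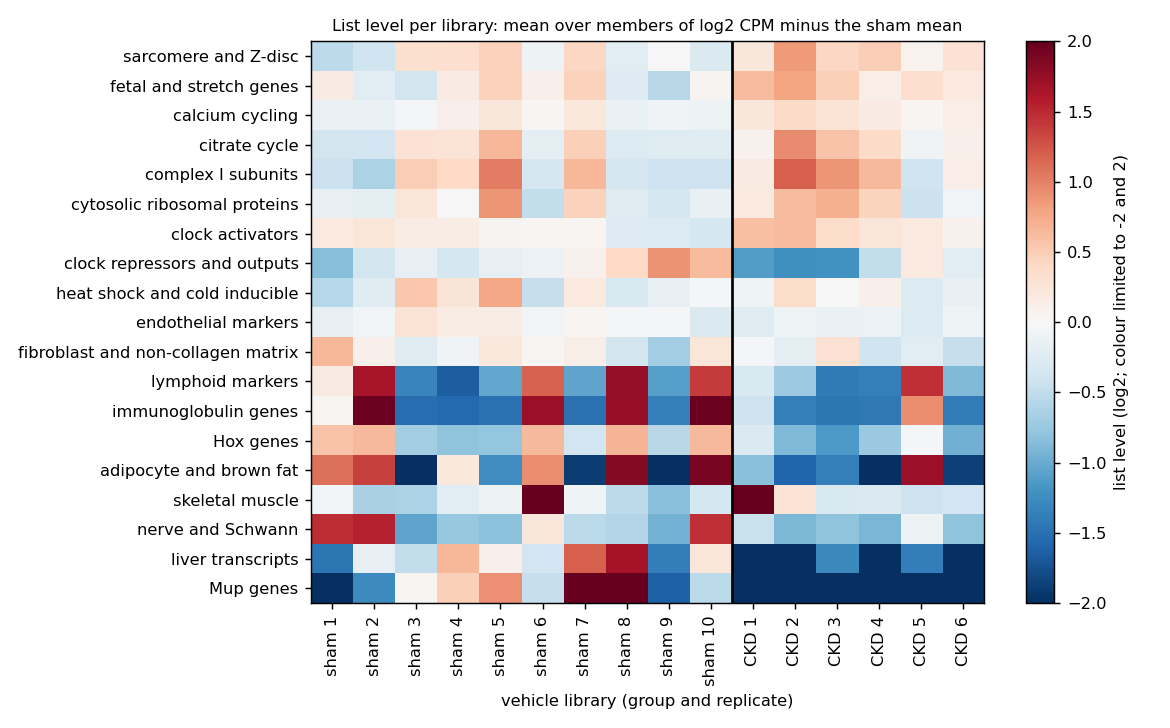
Level of 19 lists in each vehicle library (mean over members of log2 CPM minus the sham mean, colour limited to -2 and 2), sham left of the line and CKD right. Liver and Mup rows are low in all 6 CKD libraries, and the adipocyte, lymphoid, immunoglobulin and Hox rows are above 0 together in sham replicates 1, 2, 6, 8 and 10, by little for lymphoid and immunoglobulin genes in replicate 1.

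The sham libraries with high adipocyte, lymphoid and Hox levels were also low in respiratory genes. Sham replicates 1, 2, 6, 8 and 10 had complex I levels of -0.63 to -0.33. Sham replicate 9, with the lowest sham adipocyte level (-2.18), was at -0.41 as well, so the match is not complete, and CKD replicate 5, the CKD library with the highest adipocyte level (1.71), was at -0.40. The part of this in the list medians was not tested beyond the covariate fits above. Among families outside the fixed set, 2 were noticed after their values were seen. Against 2.09% higher and 2.37% lower over all genes at an unadjusted p under 0.05, neither count is read as a result. Of 342 zinc finger (Zfp) genes 209 were higher (median 0.04), with 22 higher and 1 lower at an unadjusted p under 0.05. Of 1450 antisense genes 334 were higher (median -0.23), with 8 higher and 33 lower, and with the clock score as covariate that median was -0.01.

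The CKD effect under vehicle was set against that under Oxf, in which no sample is shared. No gene had an interaction past the threshold (0 genes with edgeR, DESeq2 and limma voom, and 862 at an unadjusted p under 0.05 with edgeR, 3.55% of those tested). For the clock output Dbp the interaction was 1.14, for Slc8a1 -0.52, for Xirp1 -0.23 and for Nppb -0.44, each with an edgeR adjusted p of 1.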

How the data were processed

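Ventricular RNA of 28 mice was sequenced, and 16 libraries enter the comparison, grouped by the surgery and treatment in their titles. The deposited table holds raw read counts per gene for 45513 genes, made by the authors. Per the submitters' processing notes, the tools were FastQC 0.11.7, MultiQC 1.9, STAR 2.6.1d, Subread and featureCounts 1.6.3, on build mm10. Strand setting and treatment of multiply mapped reads are not given in the sources used here, so overlapping, antisense and near-identical genes are uncertain. P-values measure the spread between mice.

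Genes were kept by filterByExpr (minimum count 10), which left 24273. Counts were scaled with TMM and tested with edgeR 4.0.16 (R 4.3.3) by the robust quasi-likelihood F test, over all 28 libraries as 4 group means. P-values were adjusted by Benjamini-Hochberg over all genes tested, at a threshold of 0.05. SE is the size of the log2 fold change over the root of the F statistic. List levels used log2 CPM with a prior count of 2. Alternatives used DESeq2 1.42.0, limma 3.58.1 (voom), other scalings and filters, covariates and left-out libraries. The fits were tested on simulated data.

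Named genes were those past the threshold, the 12 with the smallest p in each direction at an average level of 1 log2 CPM or more, up to 4 members with the smallest p per list, 11 genes named whatever their values, and 9 looked up after their values were seen. Members and lists were chosen with earlier results of these data known. No set test was run. Some list members are not reported here.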

Additional observations from a re-analysis of the deposited data

Results flagged for a closer look

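Within each group, the highest and the lowest mouse were compared with their nearest neighbour, as a share of the group's whole range on the log2 scale. Of 550 such comparisons 25 passed the 95% limit of Dixon's test. Both ends of each group were examined, and some measures are not independent, such as the Mup copies. The count is therefore not set against a number due to chance, and single flags carry little weight.

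CKD replicate 5 held 7 of the 25 gaps. It was highest for Hlf (0.638), Bhlhe41 (0.626), Tgfb1 (0.678), the adrenergic list level (0.663) and the adipocyte list level (0.645), and lowest for Rn7s1 (0.628) and the 7SL share (0.707). CKD replicate 4 was highest for the interferon-inducible GTPases Irgm1 (0.721), Iigp1 (0.834) and Igtp (0.677), and lowest for Kcnj12 (0.779). CKD replicate 2 was highest for Cish (0.671), one of the 2 genes past the threshold, and for Hk1 (0.629).

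Libraries rich in skeletal muscle transcripts stood apart. Sham replicate 6 was highest for Actn3 (0.617), Mybpc2 (0.499) and the skeletal muscle list level (0.818), and CKD replicate 1 for Actn3 (0.733) and the list level (0.828). CKD replicate 1 was also highest for Npas2 (0.674). Sham replicate 1 was highest for Ace (0.663), and CKD replicate 3 was lowest for Prph (0.639). For Mup14 and Mup8 in CKD replicate 3, and for Mup13 and Ighv8-12 in CKD replicate 1, the gap was 1.000 because the other 5 CKD libraries were all at 0.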

How the results depend on the processing

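No paired analysis was possible because the replicate numbers were given in accession order and do not link mice across groups. Against 2 genes past the threshold and 1083 at an unadjusted p under 0.05, the counts were 1 and 1930 with the 16 vehicle libraries only, 1 and 2231 with no filter, 0 and 670 with the clock score as covariate, and 55 (40 higher) and 5191 with limma voom. Past the threshold there were 29 genes (6 higher, 17 of the others Mup genes) with DESeq2, 22 (2 higher, 16 of the others Mup genes) with the 7SL share as covariate, 1 with upper quartile factors, and 0 with the adipocyte covariate and without both skeletal muscle libraries, alternatives chosen after seeing the data. Leaving out 1 library gave 0 to 2 genes past the threshold and 597 to 2014 at an unadjusted p under 0.05. Cish passed in 10 and RP23-230H3.6 in 13 of 28 alternatives, with positive differences in each (0.65 to 0.87 and 0.61 to 0.74).

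Of the named genes' values 35 turned sign. With the clock score these were Ppp1r3c (-0.071), Mthfd1l (0.026), S100a9 (-0.015), Mertk (0.044), Bpgm (-0.022), Pvalb (-0.40), Actn3 (-0.33), Mybpc2 (-0.24), Col3a1 (-0.41), Per2 (0.24), Rn7s1 (-0.20) and Socs3 (-0.017). With the adipocyte covariate they were Ms4a1 (0.58), Col1a1 (0.044) and Rn7s1 (-0.072). Without both skeletal muscle libraries they were Pvalb (-0.10), Actn3 (-0.88), Col3a1 (-0.10) and Socs3 (-0.19). Col3a1 was at -0.028 with DESeq2 and with its size factors, at -0.038 with at least 10 counts in every library and at -0.041 with upper quartile factors. Leaving out 1 library gave -1.39 to 3.70 for Pvalb, -1.84 to 2.72 for Actn3, -0.16 to 0.20 for Socs3 and -0.18 to 0.17 for Col3a1. Beyond what each setting removes by construction, the cause was not tested.

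List medians of another sign numbered 28 of 78 with the clock score, 11 with the adipocyte covariate and 12 without CKD replicate 2. Depth limits the liver, Mup, nerve and immunoglobulin genes, many of which had only a few reads.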
